A study of Mus musculus with 6 samples.

Results

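Wnt ligands are secreted signalling proteins, and the 10 described here are Wnt2b, Wnt3, Wnt4, Wnt5a, Wnt5b, Wnt7a, Wnt7b, Wnt8b, Wnt9a and Wnt10a, chosen by gene symbol among the 18614 genes of the deposited table. The table holds a row for 19 genes that encode Wnt ligands, so 9 others serve as comparison. RNA was sequenced in bulk from the subventricular zone (SVZ), the neural stem cell niche that lines the lateral ventricle of the mouse brain. There were 3 libraries from Zhx2+/+ mice, called WT 1 to 3, and 3 from mice labelled Zhx2Δ/Δ, called KO 1 to 3. No treatment is named, and no library was given an age, sex or strain in the sources used here. Zhx2 encodes a zinc finger and homeobox transcriptional repressor, and the study's title ties it to neural stem and progenitor cells and to Wnt signalling. For KO 2 the genotype tag is ZHX3 KO and for KO 3 it is ZHX4 KO, whereas both titles name ZHX2. Whether each library stands for its own animal is not stated, so every p-value rests on the spread among these 6 libraries, and that spread may be technical.

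A Wnt protein carries a palmitoleate lipid on a conserved serine, which the acyltransferase Porcn attaches in the endoplasmic reticulum. The carrier Wls takes the lipid-bearing protein to the cell surface, and the lipid then sits in a groove of a Frizzled receptor. With the co-receptors Lrp5 and Lrp6 the signal stabilises beta-catenin, which turns on targets such as Axin2 and Lef1. Other ligands, of which Wnt5a is the best known, act mainly through Ror receptors without beta-catenin. In the adult SVZ, Wnt signals are known to act on the division of stem cells and on neurogenesis.

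The stretch that codes for the lipid-bearing serine is shown for 4 ligands. All 4 stretches code for the same amino acids, so they show how far identical protein sites differ as RNA. Each window has 30 bases, is written 5′ to 3′ on the coding strand, and has the serine codon in capitals. The windows were read from the transcript sequences of GENCODE release M21 and placed on GRCm38 (mm10) by its coding exons.
Wnt2b: tgcaagtgtcacggtgtgAGTggctcctgt
Wnt4: tgcaagtgtcacggggtgTCGggctcctgc
Wnt7a: tgtaagtgccatggtgtgTCAggctcctgt
Wnt8b: tgtaagtgccacggtgtgTCCggcagctgc
The Wnt2b window lies at chr3:104951220-104951249 on the minus strand, in exon 4 of 5. That of Wnt4 lies at chr4:137296339-137296368 on the plus strand, in exon 5 of 5. That of Wnt7a lies at chr6:91366272-91366301 on the minus strand, in exon 4 of 4. That of Wnt8b lies at chr19:44511564-44511593 on the plus strand, in exon 6 of 6. All 4 use a different serine codon. Between 22 of 30 bases (Wnt2b and Wnt8b) and 25 of 30 (Wnt2b and Wnt4, Wnt7a and Wnt8b) were identical.

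Likeness between members bears on whether reads could have been assigned to the wrong one. Over the whole aligned coding sequence, the pairs Wnt7a with Wnt7b and Wnt5a with Wnt5b were identical at 77.6% and 79.4% of bases. Their longest identical runs were 23 and 29 bases, shorter than the 50-base reads. None of the 10 ligands shared a 50-base stretch with another Wnt gene. In Wnt4, 4.33% of 50-base stretches also occurred in other genes, 665 of them when both strands were counted. In Wnt7b 4.12% occurred in its opposite-strand neighbour AU022754. Fbxl14 overlaps Wnt5b and Gm2670 overlaps Wnt5a, both on the opposite strand, Gm43846 lies within Wnt2b on the same strand, and the RefSeq spans of Wnt3 and Wnt9b, on opposite strands, overlap at their starts. Wnt2b, Wnt3 and Wnt5b shared no 50-base stretch of transcript with any other gene on either strand, and in Wnt5a 0.0573% of stretches were shared. The sources used here do not state strand-aware counting, so reads from the stretches that Wnt7b and AU022754 share cannot be told apart. A 50-base read within a shared stretch of Wnt4 cannot be assigned by its sequence alone either.

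Zhx2 itself, the labelled target, showed no lower transcript level under the KO label. It was measured at 39.8, 40.5 and 38.2 CPM in WT 1 to 3 and 67.1, 57.8 and 56.3 CPM in KO 1 to 3 (CPM, counts scaled to a common library total with the TMM method). The log2 fold change was 0.61 (SE 0.10, adjusted p = 0.163 in edgeR and 0.00142 in DESeq2). Directions below are therefore those of libraries labelled KO against libraries labelled WT. The tissue label was checked with 12 genes of SVZ stem cells, progenitors and neuroblasts, all of which were present in every library. Their summed level ran from 491 to 865 CPM. Libraries stood apart in genes of neighbouring tissue. A list of 20 choroid plexus genes summed to 23416, 18392 and 5521 CPM in WT 1 to 3 and to 528, 616 and 401 CPM in KO 1 to 3; all 20 were lower there without overlap, with 2 of them at 0 in KO 1 and 1 in KO 3. A list of 8 cortical excitatory neuron genes ran from 76.7 CPM in WT 2 to 1273 CPM in KO 1, and a list of 9 striatal projection neuron genes from 519 CPM in WT 1 to 8126 CPM in WT 2. In bulk RNA, fewer cells of a type and less RNA per cell cannot be told apart.

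All 10 ligands were detected in every library, with at least 16 estimated counts, and all had a mean above 1 CPM in both groups. To set one gene beside another, the authors' FPKM (fragments scaled to transcript length and library total), summed over each gene's transcripts, was used. In WT libraries Wnt7b stood at the top with 6.37 ± 1.76 FPKM (SD, n = 3), followed by Wnt7a with 4.38 ± 0.884 FPKM, Wnt4 with 3.45 ± 0.842 FPKM and Wnt5a with 2.66 ± 0.771 FPKM. A second tier held Wnt3 with 1.67 ± 0.0907 FPKM, Wnt2b with 1.45 ± 0.135 FPKM and Wnt9a with 1.26 ± 0.398 FPKM. The lowest were Wnt5b with 0.843 ± 0.136 FPKM, Wnt10a with 0.720 ± 0.355 FPKM and Wnt8b with 0.403 ± 0.147 FPKM. WT libraries of neighbours in this order overlapped, except between Wnt5a and Wnt3 and, by the narrowest of margins, between Wnt3 and Wnt2b. Wnt2, outside the 10, lay between Wnt4 and Wnt5a by its mean of 2.80 ± 2.41 FPKM in WT libraries. Among all genes by WT level, Wnt7b lay near the middle, at percentile 51.4, and Wnt8b at percentile 21.2.

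**Figure D1:**
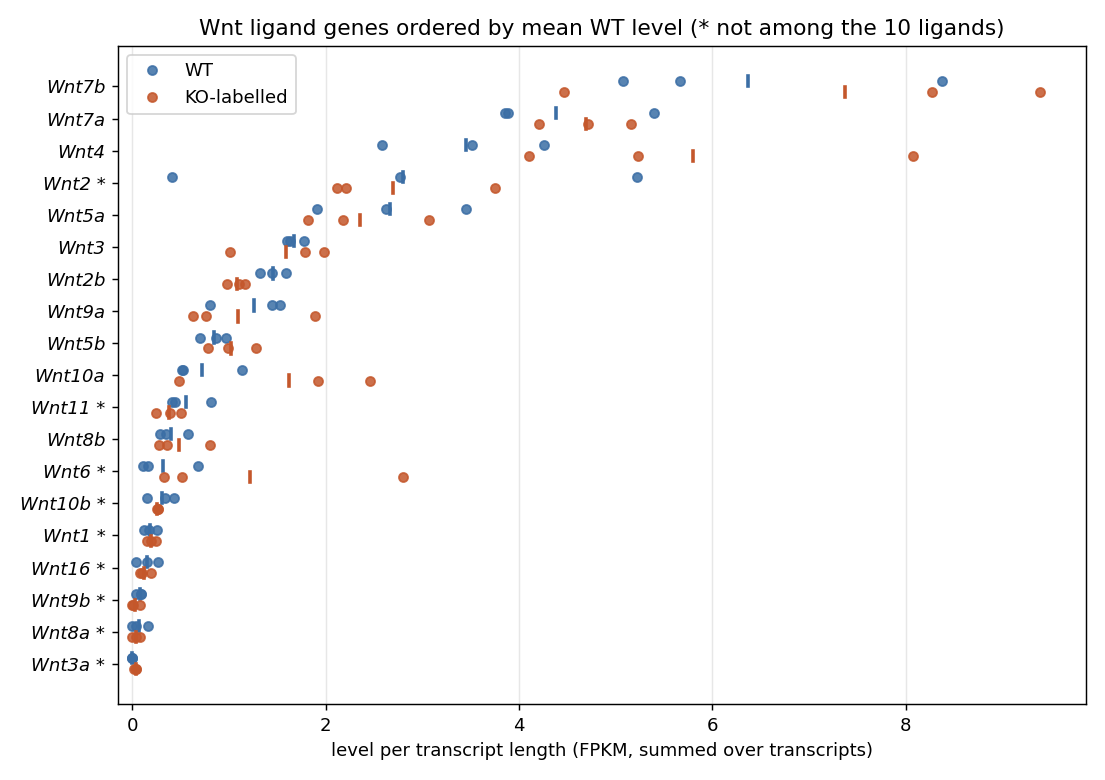
Level of each of the 19 Wnt ligand genes in FPKM (x axis), ordered by mean WT level; points are the 3 WT and 3 KO-labelled libraries, ticks are group means, and an asterisk marks the 9 genes outside the 10 ligands. Wnt7b, Wnt7a and Wnt4 lead in WT libraries, and the WT points of Wnt2 reach from 0.410 to 5.22 FPKM.

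The order in libraries labelled KO was the same for its first and last gene. Wnt7b led with 7.37 ± 2.58 FPKM and Wnt8b was last with 0.477 ± 0.284 FPKM (SD, n = 3). Between them, Wnt4 (5.80 ± 2.05 FPKM) stood second in place of Wnt7a (4.69 ± 0.475 FPKM), and Wnt10a (1.62 ± 1.02 FPKM) stood at rank 5 in place of rank 9. Both shifts were within the spread of the KO-labelled libraries: Wnt4 ran there from 4.10 to 8.08 FPKM and Wnt7a from 4.21 to 5.16 FPKM.

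Together the 10 ligands summed to 22.2, 19.6 and 27.8 FPKM in WT 1 to 3 and to 29.6, 30.6 and 21.03 FPKM in KO 1 to 3. KO 1 and KO 2 lay above all WT libraries and KO 3 below 2 of them, so the groups overlapped. The ligands made up between 74.8% (WT 2) and 92.2% (WT 1) of the FPKM of all 19 Wnt genes. Wnt7b, Wnt7a and Wnt4 alone held between 55.9% (WT 1) and 68.7% (KO 2) of the sum of the 10. Wnt7b was the leading ligand in every library but KO 3, where Wnt7a exceeded it and the ratio of Wnt7b to Wnt7a was 0.864, against 1.32 to 2.23 in the other libraries.

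None of the 10 ligands passed an adjusted p of 0.05 in edgeR's quasi-likelihood test, in which 0% of the 15126 genes tested passed and the lowest adjusted p of any gene was 0.144. DESeq2, which called 2.06% of all genes (0.0397% higher and 2.02% lower in KO-labelled libraries), and limma-voom, which called 0%, also called 0 of the 10. At an unadjusted p under 0.05 edgeR had 1 ligand, Wnt4, of 10, against 9.07% of all genes (2.68% higher, 6.39% lower). The libraries of both groups overlapped for 9 ligands and did not for Wnt2b, where KO-labelled libraries were lower; over all genes, 16.7% did not overlap, 8.74% with the KO-labelled libraries lower and 8% with them higher. The log2 fold change was positive for 6 ligands and negative for 4, with a median of 0.18; over all genes tested 53.4% were positive and the median was 0.02. The 95% confidence interval of the fold lay within 0.5 to 2 for 4 ligands only, so for the other 6 it still held a 2-fold difference in at least one direction.

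**Figure D2:**
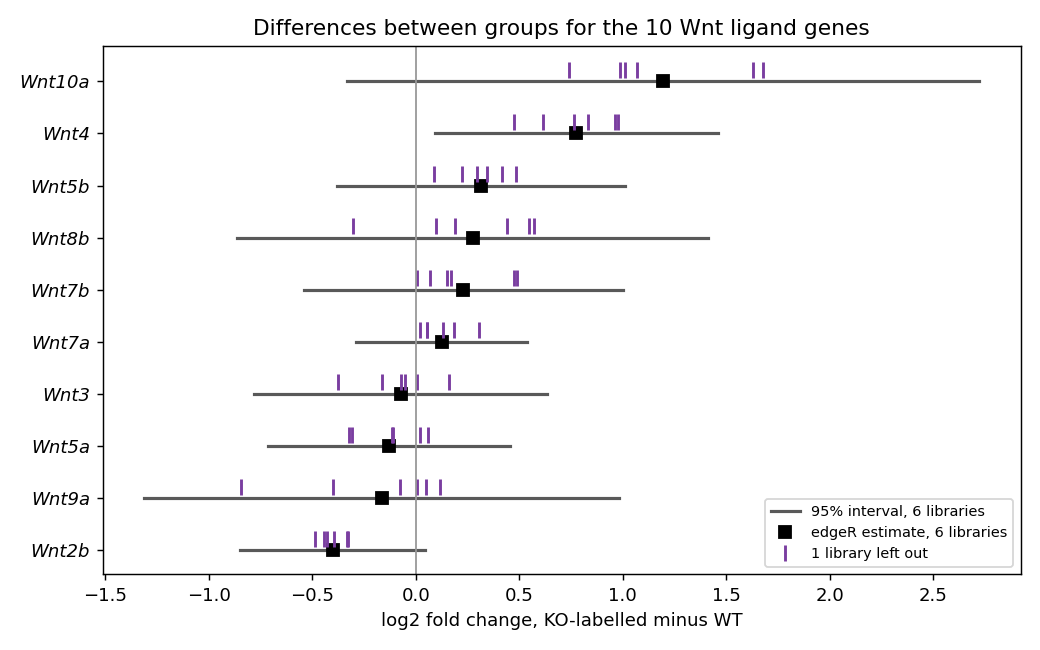
Log2 fold change of the 10 ligands, KO-labelled minus WT (x axis), with squares for edgeR's estimate over all 6 libraries, lines for its 95% confidence interval, and ticks for the estimates with 1 library left out. Wnt4 has the only interval that leaves out 0, and Wnt10a the widest.

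Wnt7a and Wnt7b are the pair best known in brain for signalling to endothelial cells through the co-receptors Reck and Adgra2, which guides vessel growth and the blood-brain barrier. Wnt7a (chromosome 6, from 91363981 to 91411353, minus strand) was at 11.7, 12.7 and 17.1 CPM in WT 1 to 3 and at 13.8, 14.97 and 16.5 CPM in KO 1 to 3. All KO-labelled libraries lay inside the WT range. The log2 fold change of 0.12 (SE 0.17, edgeR adjusted p = 0.856) had the smallest error of the 10, and its interval in fold terms, 0.819 to 1.45, leaves out a 2-fold difference either way.

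Wnt7b (chromosome 15, from 85535437 to 85581821, minus strand) was at 16.9, 20.3 and 28.8 CPM in WT 1 to 3 and at 33.2, 28.6 and 15.6 CPM in KO 1 to 3. The library labelled KO 1 was the highest of all 6 and KO 3 the lowest, so the groups overlapped throughout. Its log2 fold change was 0.23 (SE 0.32, edgeR adjusted p = 0.856). The table splits this gene over 3 RefSeq transcripts, and the estimated split moved more than the sum did. One of them held 74.0%, 100% and 61.5% of the gene in WT 1 to 3, against 44.6%, 63.3% and 71.7% in KO 1 to 3. Another went from 0% in WT 2 to 47.4% in KO 1. These shares are the authors' estimates between overlapping transcripts. Reck (19.4 and 18.2 CPM on average in WT and KO-labelled libraries, edgeR adjusted p = 0.903) and Adgra2 (21.4 and 22.4 CPM, adjusted p = 0.952) were looked at for their role with this pair after their values were known, and neither passed the test.

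Wnt4, known for its part in kidney and female reproductive tract development, had the smallest p of the 10. It lies on chromosome 4 from 137277635 to 137299501 on the plus strand and has 1 transcript in the table. The part of its stretches shared with other genes (4.33%) in its level was not tested. Its level was 12.9, 10.1 and 16.3 CPM in WT 1 to 3 and 20.7, 31.0 and 15.8 CPM in KO 1 to 3, on average 13.1 ± 3.08 against 22.5 ± 7.75 CPM (SD, n = 3). KO 1 and KO 2 exceeded every WT library, whereas KO 3 lay just under WT 3. The log2 fold change was 0.78 (SE 0.29, 95% interval 0.09 to 1.46) with an unadjusted p of 0.0316 and an adjusted p of 0.498 in edgeR. It did not pass in DESeq2 either (adjusted p = 0.311). KO 2 carried much of it, for without that library the log2 fold change was 0.47, and without KO 3 it was 0.98. By FPKM, Wnt4 stood at 0.692, 0.456 and 0.509 of Wnt7b in WT 1 to 3 and at 0.557, 0.977 and 0.919 of it in KO 1 to 3, again with overlap, since KO 1 lay below WT 1.

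Wnt2b and Wnt8b are known from the dorsal midline of the forebrain, where they mark the cortical hem and its surroundings, and Wnt3 from the support of neurogenesis in the adult hippocampus. Wnt2b (chromosome 3, from 104944805 to 104961709, minus strand) was at 4.55, 5.28 and 5.69 CPM in WT 1 to 3 and at 4.06, 4.15 and 3.52 CPM in KO 1 to 3. It was the one ligand whose groups did not overlap, with every KO-labelled library below every WT library. The log2 fold change was -0.40 (SE 0.19, 95% interval -0.85 to 0.05, unadjusted p = 0.0717, edgeR adjusted p = 0.591). An exact two-sided permutation test over the 6 libraries gave p = 0.1, the smallest that 3 against 3 allows. Any gene without overlap gives that value, so the test adds nothing to the lack of overlap. Of all genes tested, 16.7% had no overlap, 8.74% with the KO-labelled libraries lower. Leaving out any 1 library kept the log2 fold change between -0.49 and -0.33. The choroid plexus genes given above and 11 of 12 genes of ependyma and motile cilia were lower on the same side. Over all genes tested, 53.4% had a positive log2 fold change. The summed level of the ependymal list was 292, 213 and 200 CPM in WT 1 to 3 and 142, 127 and 98.2 CPM in KO 1 to 3. Among WT libraries both lists fell from WT 1 to WT 3, whereas Wnt2b rose. The part of either list in the Wnt2b difference was not tested.

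Wnt3 (chromosome 11, from 103774175 to 103818021, plus strand) was at 4.87, 5.46 and 4.23 CPM in WT 1 to 3 and at 6.36, 4.49 and 2.99 CPM in KO 1 to 3. The KO-labelled libraries lay on both sides of the WT range, and the log2 fold change was -0.07 (SE 0.30, edgeR adjusted p = 0.964). Wnt8b (chromosome 19, from 44493472 to 44514273, plus strand) was at 1.84, 1.20 and 0.986 CPM in WT 1 to 3 and at 0.943, 2.71 and 1.23 CPM in KO 1 to 3. KO 2 was the highest and KO 1 the lowest of the 6. The log2 fold change of 0.27 (SE 0.48, edgeR adjusted p = 0.889) turned to -0.30 without KO 2.

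Wnt5a and Wnt5b signal mainly without beta-catenin. Wnt5a (chromosome 14, from 28504543 to 28527448, plus strand) was at 16.02, 9.48 and 13.2 CPM in WT 1 to 3 and at 9.25, 11.6 and 14.6 CPM in KO 1 to 3. Its groups covered almost the same range, and the log2 fold change was -0.13 (SE 0.25, 95% interval -0.71 to 0.46, edgeR adjusted p = 0.899). Wnt5b (chromosome 6, from 119432531 to 119544824, minus strand) was at 1.79, 1.62 and 2.09 CPM in WT 1 to 3 and at 2.95, 2.19 and 1.70 CPM in KO 1 to 3. KO 1 and KO 2 lay above the WT libraries and KO 3 among them. Its groups differed by a log2 fold change of 0.31 (SE 0.29, edgeR adjusted p = 0.779).

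Wnt9a, best known from joint formation, and Wnt10a, best known from teeth, hair and skin, were the most uneven of the 10. Wnt9a (chromosome 11, from 59306849 to 59333552, plus strand) was at 4.66, 2.76 and 5.11 CPM in WT 1 to 3 and at 6.54, 2.53 and 2.11 CPM in KO 1 to 3. KO 1 lay above all WT libraries and KO 2 and KO 3 below all of them. On average it differed by a log2 fold change of -0.16 (SE 0.48, edgeR adjusted p = 0.940). Of its 2 transcripts, the curated RefSeq one held 41.0%, 0% and 68.4% of the gene's estimated counts in WT 1 to 3, against 62.5%, 100% and 100% in KO 1 to 3.

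Wnt10a (chromosome 1, from 74792019 to 74804176, plus strand) was at 0.974, 1.02 and 2.20 CPM in WT 1 to 3 and at 4.95, 3.74 and 0.939 CPM in KO 1 to 3. KO 1 and KO 2 were the highest of the 6 libraries and KO 3 the lowest, at the level of WT 1. Its log2 fold change of 1.19 (SE 0.64, 95% interval -0.33 to 2.72, edgeR adjusted p = 0.635) was the furthest from 0 and the least certain of the 10. Without KO 1 it was 0.74 and without WT 3 it was 1.68.

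**Figure D3:**
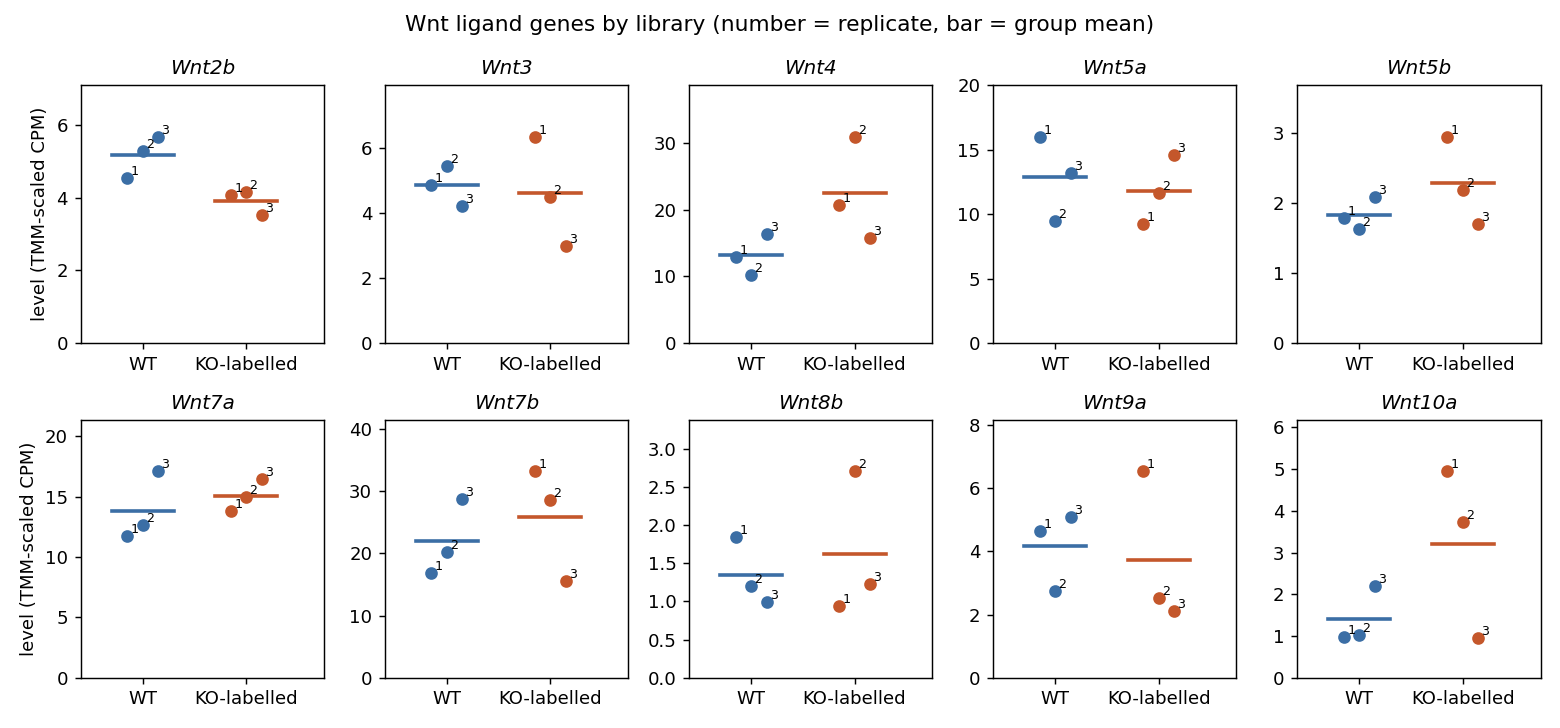
Level of each of the 10 ligands in TMM-scaled CPM (y axis, from 0, a scale of its own in each panel) in the 3 WT and 3 KO-labelled libraries; numbers are replicates and bars are group means. Groups overlap in every panel but that of Wnt2b, and KO 1 and KO 3 are far apart for Wnt7b, Wnt9a and Wnt10a.

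The libraries labelled KO differed among themselves more than WT libraries did for 7 of the 10 ligands, judged by the SD. The share over all genes was not computed, so this count cannot be read as a trait of the ligands. KO 1 was the highest of the 6 libraries for 5 ligands (Wnt3, Wnt5b, Wnt7b, Wnt9a and Wnt10a), and KO 3 was the lowest for 5 (Wnt2b, Wnt3, Wnt7b, Wnt9a and Wnt10a). For these counts too the share over all genes was not computed, so they cannot be read as a trait of the ligands. The level in KO 1 was 5.27 times that in KO 3 for Wnt10a and 3.09 times for Wnt9a. All 10 ligands had a standard error above the median of all genes tested, with a median of 0.30 against 0.17 on the log2 scale. Genes were not matched for level in this comparison, and the ligands lay at percentiles 21.2 to 51.4 by WT level.

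Levels of neighbouring tissue moved between the same libraries. The 8 cortical excitatory neuron genes summed to 140, 76.7 and 661 CPM in WT 1 to 3 and to 1273, 248 and 80.6 CPM in KO 1 to 3, so KO 1 and WT 3 were the highest in their groups. Among them Slc17a7, the vesicular glutamate transporter of cortical neurons, ran from 13.6 CPM in KO 3 to 939 CPM in KO 1. Of the 10 ligands, 4 (Wnt5b, Wnt7b, Wnt9a and Wnt10a) were likewise highest in WT 3 among WT libraries and in KO 1 among KO-labelled libraries, and lowest in KO 3 among the latter. A list of 5 blood genes had the same extremes (256, 170 and 307 CPM in WT 1 to 3, 389, 318 and 278 CPM in KO 1 to 3). A list of 7 oligodendrocyte and precursor genes also fell from KO 1 to KO 3, but was highest in WT 1 among WT libraries. The share of all genes with this pattern was not computed, so it cannot be read as particular to these ligands or to cortical genes. Wnt3 was also highest in KO 1 and lowest in KO 3 but, among WT libraries, was lowest in WT 3, and the other 5 ligands were highest in KO 2 or KO 3 among KO-labelled libraries. A list of 8 genes of meningeal fibroblasts and mural cells was highest in KO 2, at 368 CPM against 202 to 243 CPM elsewhere. Its members did not all follow. Col1a1, Col1a2, Acta2 and Aldh1a2 were highest in KO 2, but Dcn (43.7 CPM) and Lum (8.88 CPM) were highest in WT 1, against 28.3 and 6.45 CPM in KO 2. Wnt4 and Wnt8b were also highest in KO 2, and Wnt10a, at 3.74 CPM, had its second highest level there. The part of these tissues in the ligand levels was not tested.

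**Figure D4:**
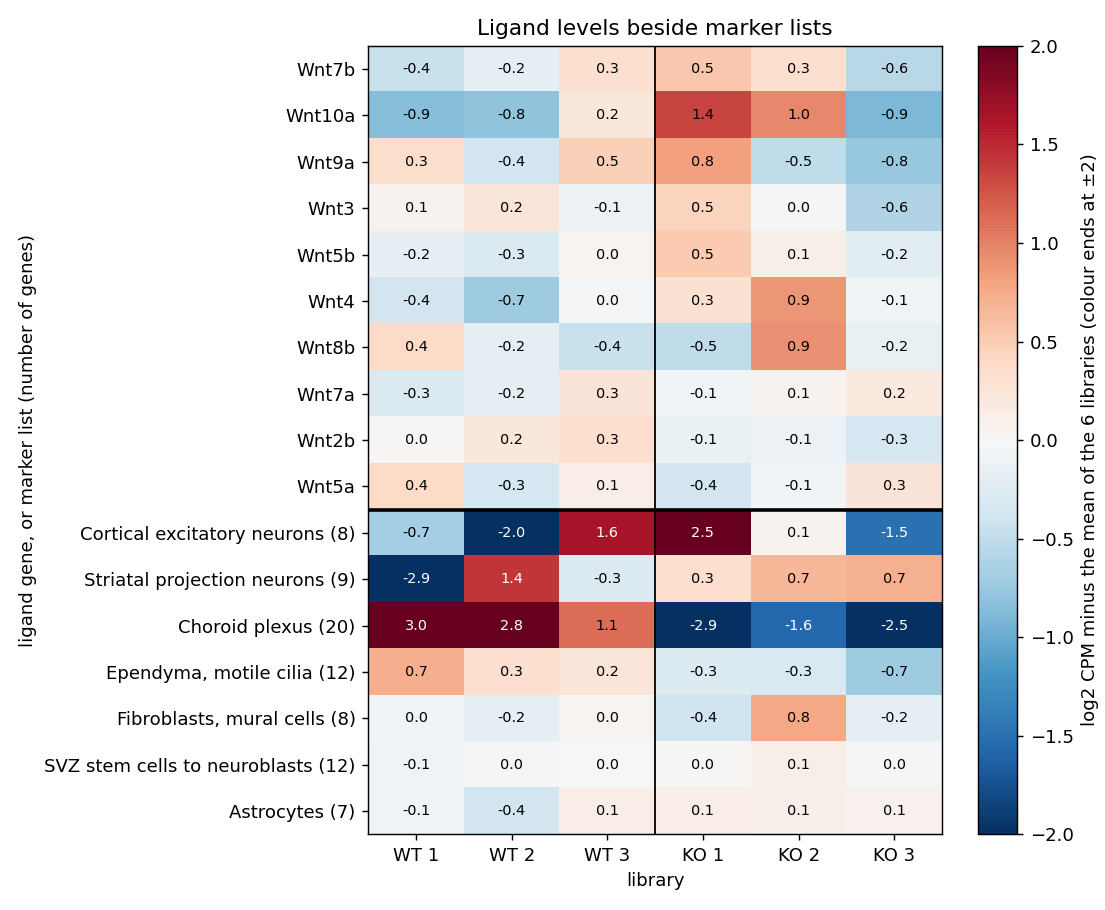
Log2 CPM minus the mean of the 6 libraries (colour and number in each cell) for the 10 ligands above the line and for 7 marker lists, averaged over their genes, below it; columns are libraries. Wnt7b, Wnt10a, Wnt9a, Wnt5b and the cortical neuron list are each at their highest in KO 1 and, among WT libraries, in WT 3; Wnt4, Wnt8b and the fibroblast and mural list are at their highest in KO 2, where Wnt10a is also high (0.97) and the cortical list is near its mean (0.07).

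Of the 9 Wnt genes outside the set, 4 had enough counts to be tested, and none of these passed in edgeR, DESeq2 or limma-voom. Wnt2 was the most uneven among WT libraries, at 1.19, 13.6 and 7.19 CPM in WT 1 to 3 and 5.36, 5.36 and 9.34 CPM in KO 1 to 3 (log2 fold change -0.13, edgeR adjusted p = 0.975). WT 1 and WT 2, its lowest and highest libraries, were also the lowest and highest for the striatal neuron genes, and the part of that tissue was not tested. Wnt6, which lies 6.7 kb from Wnt10a on chromosome 1, was at 0.325, 0.240 and 1.39 CPM in WT 1 to 3 and at 0.707, 5.76 and 1.06 CPM in KO 1 to 3 (log2 fold change 1.94, SE 1.02, edgeR adjusted p = 0.631). Its high library was KO 2, whereas that of Wnt10a was KO 1.

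Wnt10b and Wnt11 lay between 0.433 and 1.35 CPM in every library, with log2 fold changes of -0.16 and -0.49 (edgeR adjusted p = 0.936 and 0.741). Wnt1, Wnt8a, Wnt9b and Wnt16 were under 1 CPM in every library and were not tested. Wnt3a, the neighbour of Wnt9a at a distance of 16.1 kb on chromosome 11, was not counted in any WT library (0 counts each), and KO 1, KO 2 and KO 3 held 1, 2 and 2 counts. All of these are under the floor of 3 counts, or 0.17 to 0.176 CPM, so no fold is given.

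Acylation and secretion make a ligand able to signal, and extracellular enzymes such as Notum inactivate it again. Of 9 genes for Wnt acylation, secretion and removal, 9 were tested and 0 passed in edgeR or DESeq2; at an unadjusted p under 0.05, 1 was lower and 0 higher in KO-labelled libraries, beside 6.39% and 2.68% of all genes. That gene was Wls, the carrier, at 59.4, 56.2 and 45.5 CPM in WT 1 to 3 and at 38.5, 38.1 and 30.2 CPM in KO 1 to 3. Its groups did not overlap, and the log2 fold change was -0.59 (SE 0.15, edgeR adjusted p = 0.289; DESeq2 adjusted p = 0.063). The choroid plexus and ependymal lists were lower in the same libraries, and the WT values of Wls ranked as those of both lists did. Among KO-labelled libraries Wls ranked as the ependymal list did, whereas the choroid plexus list was highest in KO 2. The part of both lists in the Wls level was not tested. Porcn, the acyltransferase, was at 53.5 ± 5.42 against 58.2 ± 5.08 CPM (SD, n = 3; log2 fold change 0.12, edgeR adjusted p = 0.786). Vps29, a retromer subunit that recycles Wls, had a log2 fold change of 0.09 (edgeR adjusted p = 0.807).

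The receptors and co-receptors that the ligands bind had a negative log2 fold change for 15 genes of 18. Of these 18, all tested, 0 passed in edgeR, 6 were lower and 0 higher at an unadjusted p under 0.05, and the median log2 fold change was -0.38, beside 0.02 over all genes. Over all genes, 6.39% were lower and 2.68% higher at that threshold. DESeq2 called 4 of the 18 lower (Lrp5, Fzd7, Fzd4 and Lrp6), where it called 2.02% of all genes lower. Fzd7, a Frizzled receptor of stem cells, was at 59.8, 30.4 and 28.3 CPM in WT 1 to 3 and at 14.1, 12.7 and 8.51 CPM in KO 1 to 3, with no overlap (log2 fold change -1.75, SE 0.35, edgeR adjusted p = 0.202). Lrp5, a co-receptor of the beta-catenin branch, was at 25.7 ± 3.17 against 15.1 ± 1.67 CPM (SD, n = 3; log2 fold change -0.77, edgeR adjusted p = 0.178). Fzd4, a Frizzled receptor of brain endothelium, had a log2 fold change of -1.20 (edgeR adjusted p = 0.288). The choroid plexus and ependymal lists were lower in the same libraries, and their part in the receptor levels was not tested.

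Among R-spondins, which strengthen Wnt signals, and secreted antagonists, which bind ligands or co-receptors, 12 of 14 genes could be tested. None passed in edgeR or DESeq2, and at an unadjusted p under 0.05 1 was higher and 2 were lower in KO-labelled libraries, beside 2.68% and 6.39% of all genes. Rspo3 was at 3.09, 2.94 and 4.99 CPM in WT 1 to 3 and at 8.72, 6.68 and 5.46 CPM in KO 1 to 3, all above the WT range (log2 fold change 0.92, SE 0.29, edgeR adjusted p = 0.416). Sfrp5, a decoy that binds Wnt proteins, was at 14.5, 10.02 and 4.29 CPM in WT 1 to 3 and at 0.236, 2.42 and 3.46 CPM in KO 1 to 3, without overlap. Its log2 fold change was -2.23 (SE 0.82, edgeR adjusted p = 0.499). Its WT libraries ranked as the choroid plexus list did. Among KO-labelled libraries Sfrp5 was highest in KO 3, whereas that list was highest in KO 2. The part of that list in the Sfrp5 level was not tested. Sfrp1, another decoy, had a log2 fold change of -0.81 (edgeR adjusted p = 0.550).

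Of 13 canonical targets, 0 passed in edgeR or DESeq2, 3 were lower and 0 higher at an unadjusted p under 0.05 (6.39% and 2.68% of all genes), and the median log2 fold change was 0.03. The 3 were Prox1 (log2 fold change -0.90, edgeR adjusted p = 0.406), Lef1 (-0.66, adjusted p = 0.490) and Znrf3 (-0.34, adjusted p = 0.528). Prox1 is a homeobox factor, Lef1 binds beta-catenin on DNA, and Znrf3 removes Frizzled receptors from the cell surface. Axin2, the feedback inhibitor most often read as a gauge of beta-catenin signalling, was looked at for that role after its values were known. It was at 39.0, 28.8 and 43.7 CPM in WT 1 to 3 and at 39.1, 32.1 and 36.0 CPM in KO 1 to 3, with all KO-labelled libraries inside the WT range (log2 fold change -0.06, edgeR adjusted p = 0.940).

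The genes whose profile over the 6 libraries lay nearest to a ligand were sought for Wnt4, Wnt2b and Wnt10a, the 3 with the smallest p, among 14533 genes with a mean of at least 1 CPM. Distance was the root mean square difference of centred log2 CPM. Nearest to Wnt4 were Mylk (0.14), the smooth muscle myosin light chain kinase, Sdcbp2 (0.14) and the predicted locus Gm19345 (0.18), where the median gene lay at 0.54. Mylk was at 16.9, 13.7 and 21.2 CPM in WT 1 to 3 and at 23.2, 31.6 and 19.0 CPM in KO 1 to 3. It had the same highest and lowest library as Wnt4, which follows from its choice by likeness. Nearest to Wnt2b were Wdr90 (0.08), Tmem260 (0.09) and Bicc1 (0.09), against a median of 0.31. Nearest to Wnt10a were Blnk (0.29), Gm6434 (0.39) and Fhl2 (0.40), against a median of 0.94. Fhl2 was at 3.84, 5.70 and 9.17 CPM in WT 1 to 3 and at 16.8, 8.75 and 5.28 CPM in KO 1 to 3. Chosen in the same way, it was highest in KO 1 like Wnt10a, but lowest in WT 1, where Wnt10a was lowest in KO 3.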

How the data were processed

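Each library was deposited as estimated counts and FPKM for 61481 RefSeq transcripts, per the file headers and the values. Values deposited as FPKM are scaled by the authors for transcript length and sequencing total, as their ratio to the counts shows. Per the submitters' processing notes, the build mm10 and the tool limma 3.40.6 were used; the sources used here name neither aligner nor quantifier.

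Transcript counts were added up by NCBI gene number (18614 genes, 18489 of them with a RefSeq symbol) and rounded. Totals ran from 17037152 to 17685906 counts. The 125 genes without a symbol held 0.104% to 0.140% of counts. Replicate pairs all differed beyond sampling noise (chi-square per degree of freedom 21.7 to 95.4). Testing used edgeR 4.0.16 under R 4.3.3 (TMM, filterByExpr with minimum count 10, robust quasi-likelihood F test with trended dispersion, two-sided, no covariate beside group), with Benjamini-Hochberg adjustment over the 15126 genes kept and a threshold of 0.05. The standard error was derived from the fold change and F. DESeq2 1.42.0, limma-voom (limma 3.58.1), other scalings and filters, FPKM with limma on log2(FPKM + 0.1) and each library left out were run as alternatives. The procedure was checked on simulated counts. Floors cover counting error only.

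The 10 ligands and the gene lists were chosen with earlier results of these data known. Named genes are all Wnt genes with a row, Zhx2, up to 3 genes with the smallest p per list, the 3 nearest profiles of the 3 ligands with the smallest p, and those marked as chosen after their values were seen. Marker genes (Slc17a7, Col1a1, Col1a2, Acta2, Aldh1a2, Dcn and Lum) illustrate their lists. Sequences are from GENCODE M21 and gene positions from RefSeq GRCm38.p6, the same build as mm10.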

Additional observations from a re-analysis of the deposited data

How the results depend on the processing

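No ligand passed the threshold in any of the 17 alternatives run. Over all genes DESeq2 called 311 and the fit without WT 3 called 137, so leaving out single libraries gave 0 to 137, and the other alternatives called 0. In the other pathway lists DESeq2 called 4 genes and leaving out single libraries 0 to 0. The log2 fold changes of Wnt2b, Wnt4, Wnt5b, Wnt7b and Wnt10a kept their sign in every alternative that gave them a value. With KO 1 alone against WT, 4 others turned: Wnt3 to 0.39, Wnt7a to -0.0041, Wnt8b to -0.51 and Wnt9a to 0.65. With single libraries left out, Wnt3 ran from -0.37 (without KO 1) to 0.16 (without KO 3; 0.008 without WT 2). Wnt9a ran from -0.84 (without KO 1) to 0.12 (without KO 3; 0.006 without WT 3 and 0.05 without KO 2). Wnt5a ran from -0.32 (without WT 2) to 0.057 (without WT 1; 0.020 without KO 1), and Wnt8b from -0.30 (without KO 2) to 0.57 (without WT 1). Wnt7b ran from 0.004 (without KO 1) to 0.49 (without KO 3). The adjusted p of Wnt4 ran from 0.311 to 0.899. Zhx2 passed with DESeq2 only (adjusted p = 0.00142). With the replicate number as a block, 0 ligands and 0 genes were called and Wnt4 had a log2 fold change of 0.74 (adjusted p = 0.785). Libraries of the same number did not deviate together (correlations -0.162, -0.067 and -0.037). The labels give no pairing beyond the number, and these values cannot show that none exists. With a filter of 5 CPM only 5 of the 10 ligands were tested, and Wnt3, Wnt5b, Wnt8b, Wnt9a and Wnt10a had no value. FPKM and CPM per kilobase gave WT levels of the 10 ligands within 1 SD of each other. The lowest estimated count of a ligand in a library was 16; depth was not varied.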
